A study of Mus musculus with 6 samples.

Results

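Fc receptors bind the constant part of antibodies and pass the contact on to the cell that carries them. Of the 46603 genes counted in kidney CD11B+ cells, 8 genes of this family are described, namely *Fcgr1*, *Fcgr3*, *Fcgr4*, *Fcgr2b*, *Fcer1g*, *Fcgrt*, *Fcer1a* and *Fcrls*. They were chosen by gene symbol, with no threshold on their values. RNA-Seq was made on day 3 after bilateral ischemia-reperfusion acute kidney injury (IRI-AKI), in which both renal pedicles of male mice aged 10 to 12 weeks were clamped for 28 minutes. All 6 mice carried the Rosa26-LSL-RARaT403X allele, which encodes a dominant negative retinoic acid receptor (RAR) behind a stop cassette that Cre removes. In the 3 PTEC DN RAR mice (PEPCK CRE+) Cre was driven by the PEPCK promoter, which was used to target proximal tubular epithelial cells (PTECs), and the 3 Cre- controls (PEPCK CRE-) had the allele without Cre. The cells were bound to CD11b magnetic beads, and each library came from 1 mouse. The comparison asks how myeloid cells differ when RAR signalling is blocked in the neighbouring tubules.

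In macrophages, receptors for IgG work as opposed pairs. The activating receptors encoded by *Fcgr1*, *Fcgr3* and *Fcgr4* need a shared chain, encoded by *Fcer1g*, whose immunoreceptor tyrosine-based activation motif (ITAM) recruits the kinase Syk and drives phagocytosis of IgG-coated particles. The receptor encoded by *Fcgr2b* carries an inhibitory motif and recruits the phosphatase SHIP1 to the same complexes.

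The libraries held between 29318041 and 46517005 counts over genes. Mitochondrial genes took 5.03% to 8.77% of the counts in the controls and 10.38% to 12.08% in PTEC DN RAR, without overlap, and the part of this difference in the results was not tested. *Itgam*, which encodes CD11B, reached 980.3 to 1995 CPM (counts per 1000000 counts of the library, after scaling by the trimmed mean of M values, TMM) in the 6 libraries. *Csf1r*, the receptor for macrophage colony-stimulating factor, reached 3097 to 3591 CPM. The genotypes were taken from the labels, and the transgene was not checked from these counts.

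Transcripts for 2 of the 3 activating IgG receptors, *Fcgr1* and *Fcgr3*, and for *Fcrls* were lower in CD11B+ cells of PTEC DN RAR mice. The third activating receptor, *Fcgr4*, had nearly equal means in the genotypes, as did the shared chain *Fcer1g*. Of the 8 genes, 7 passed the filter on low counts and *Fcer1a* did not. An adjusted p under 0.05 (edgeR's quasi-likelihood test, Benjamini-Hochberg over 15440 genes) called 3 of the 7 lower, beside 17.1% of all genes tested, and 0 higher, beside 23.6%. The count higher was also 0 at an unadjusted p under 0.05 and 0 with DESeq2 and with limma-voom, both of which called the same 3 genes lower. The median log2 fold change was -0.33 over the 7 genes and 0.04 over all genes tested. In bulk libraries fewer cells of a type and less RNA per cell cannot be told apart.

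**Figure D1:**
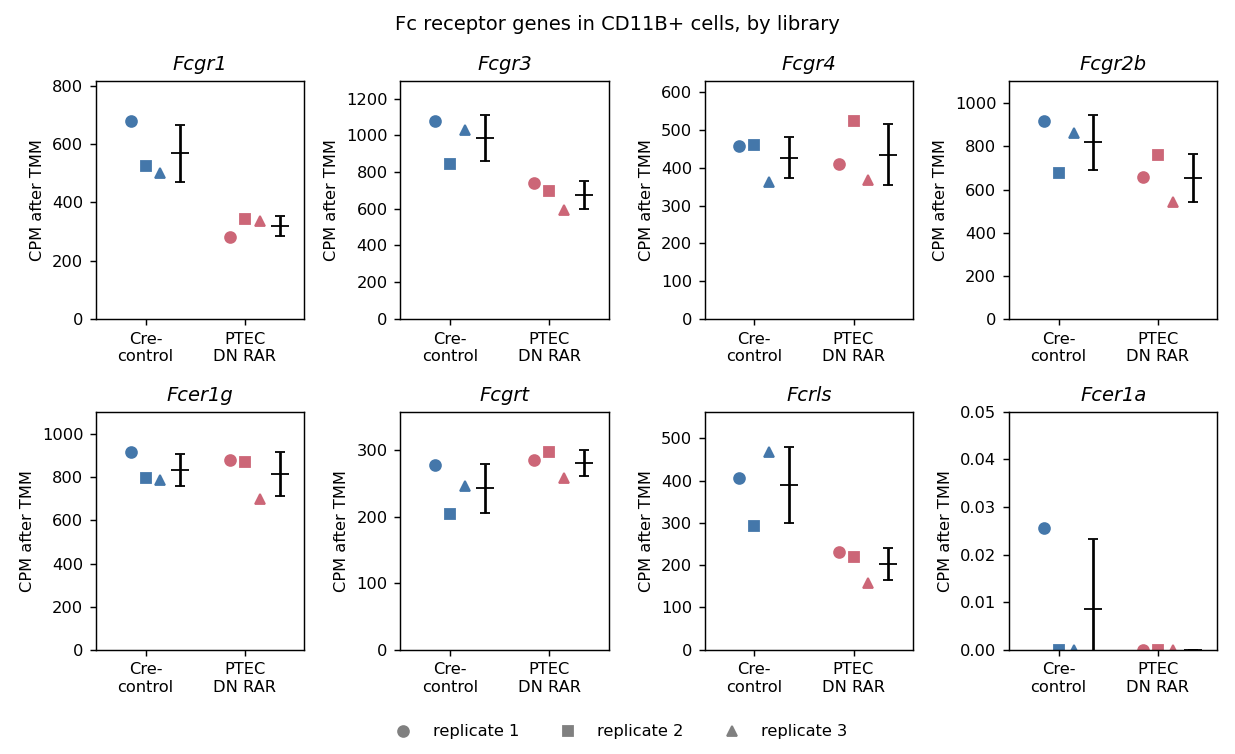
Level of each of the 8 Fc receptor genes in CPM after TMM (vertical axes from 0) in the 3 Cre- control and 3 PTEC DN RAR libraries, 1 point per mouse. The points of the genotypes are apart for *Fcgr1*, *Fcgr3* and *Fcrls*, with all PTEC DN RAR points under the control points, and overlap for the other genes detected.

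*Fcgr1* encodes the high-affinity IgG receptor CD64, which binds single IgG2a and IgG2c molecules (ENSMUSG00000015947, GRCm38 chr3:96282909-96293969, minus strand). Its level was 680.4, 523 and 502 CPM in Cre- controls 1, 2 and 3 and 281, 343 and 336 CPM in PTEC DN RAR 1, 2 and 3. All 3 PTEC DN RAR values lay under the lowest control, a pattern that 24.2% of all genes tested had, and the highest of the 6 was control 1. The mean fell from 569 ± 97.4 CPM (SD, n = 3) to 320.0 ± 34.0 CPM (SD, n = 3), a log2 fold change of -0.83 (SE 0.14, 95% interval -1.14 to -0.51, edgeR adjusted p = 0.0024). *Fcgr1* was thus 1.78-fold lower, and 3.9% of the genes tested had a lower log2 fold change.

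*Fcgr3* encodes CD16, a low-affinity receptor for immune complexes (ENSMUSG00000059498, chr1:171051174-171064935, minus strand). It was at 1080.3, 845 and 1032 CPM in the controls and at 739, 698 and 592 CPM in PTEC DN RAR. Again the genotypes did not overlap, with control 2 the lowest control. The mean fell from 986 ± 124 CPM (SD, n = 3) to 677 ± 75.9 CPM (SD, n = 3), a log2 fold change of -0.54 (SE 0.13, 95% interval -0.84 to -0.25, edgeR adjusted p = 0.011). Stretches of 50 bases from *Fcgr3* transcripts were also present in *Fcgr2b* in 166 of 1733 cases (9.58%), and reads that align to more than 1 place were left out of the counts, so both genes may be undercounted. The other 6 genes shared no 50-base stretch with one another or with these genes.

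*Fcgr4* encodes an intermediate-affinity receptor for IgG2 subclasses (ENSMUSG00000059089, chr1:171018920-171029761, plus strand). Its level was 458, 460.1 and 363 CPM in the controls and 411, 525 and 368 CPM in PTEC DN RAR. The genotypes overlapped, with both the highest and the next-to-lowest library in PTEC DN RAR. The means were 427 ± 55.3 CPM and 435 ± 80.8 CPM (SD, n = 3 each), and the log2 fold change was 0.03 (SE 0.15, 95% interval -0.32 to 0.37, edgeR adjusted p = 0.91). The lower bound of this interval is nearer to 0 than the changes of *Fcgr1* and *Fcgr3*.

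Promoter sequences are shown for the 3 genes that were lower and for *Fcgr4*, the activating receptor that was not. Each is the RefSeq window (GRCm38.p6) from 250 bases before the annotated start site to 50 bases from it on, printed 5′ to 3′ on the gene's strand. Capitals mark matches to 3 motifs searched on both strands, namely GAGGAA, the core bound by the myeloid factor PU.1, TTCNNNGAA, the gamma-activated site (GAS), and GAAA followed by any 2 bases and GAAA, the core of the interferon-stimulated response element (ISRE), none of which overlapped another in these windows. The windows are chr3:96293920-96294219, minus strand, for *Fcgr1*, chr1:171059354-171059653, minus strand, for *Fcgr3*, chr1:171018676-171018975, plus strand, for *Fcgr4* and chr3:87263475-87263774, minus strand, for *Fcrls*.
Fcgr1: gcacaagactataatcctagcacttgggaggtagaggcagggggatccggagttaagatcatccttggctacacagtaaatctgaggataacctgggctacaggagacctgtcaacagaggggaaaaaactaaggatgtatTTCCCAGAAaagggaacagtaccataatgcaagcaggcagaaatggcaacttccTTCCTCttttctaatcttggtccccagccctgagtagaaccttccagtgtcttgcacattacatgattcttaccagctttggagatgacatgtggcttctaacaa
Fcgr3: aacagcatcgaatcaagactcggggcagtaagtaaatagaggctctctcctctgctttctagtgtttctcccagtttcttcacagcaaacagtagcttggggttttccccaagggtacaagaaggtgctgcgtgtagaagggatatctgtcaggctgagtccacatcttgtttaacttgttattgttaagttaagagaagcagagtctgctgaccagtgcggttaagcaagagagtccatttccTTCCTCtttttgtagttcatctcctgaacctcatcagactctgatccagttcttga
Fcgr4: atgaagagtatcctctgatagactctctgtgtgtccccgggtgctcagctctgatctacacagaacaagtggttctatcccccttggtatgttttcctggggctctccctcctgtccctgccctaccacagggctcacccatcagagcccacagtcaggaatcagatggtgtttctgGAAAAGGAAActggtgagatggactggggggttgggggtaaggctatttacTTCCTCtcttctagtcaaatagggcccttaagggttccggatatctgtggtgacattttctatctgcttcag
Fcrls: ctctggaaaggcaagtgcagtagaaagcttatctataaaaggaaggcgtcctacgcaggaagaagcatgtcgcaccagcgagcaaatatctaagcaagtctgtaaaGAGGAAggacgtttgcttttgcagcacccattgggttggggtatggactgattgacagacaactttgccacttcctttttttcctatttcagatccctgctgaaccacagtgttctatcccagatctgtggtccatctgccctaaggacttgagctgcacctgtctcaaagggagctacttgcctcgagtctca
The *Fcgr1* window held a GAS match, TTCCCAGAA, at position -109 from the start site and a PU.1 core on the other strand at -55. The *Fcgr3* window held a PU.1 core at -6 on the other strand. The *Fcgr4* window held an ISRE core, GAAAAGGAAA, at -73 and a PU.1 core at -22 on the other strand. In *Fcrls* a PU.1 core was at -144. Over the 9 RefSeq windows of the 8 genes, of which *Fcgr3* has 2 that overlap, 6 held a PU.1 core, 1 a GAS and 1 an ISRE core. The shares among all 32851 windows of 300 bases were 28.3%, 8.3% and 3.4%. These matches describe the letters in the windows and were not tested for binding.

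*Fcgr2b*, the inhibitory IgG receptor (ENSMUSG00000026656, chr1:170958617-170976547, minus strand), was at 919, 674 and 861 CPM in the controls and at 659.5, 759.9 and 540.0 CPM in PTEC DN RAR. The genotypes overlapped, since control 2 lay below PTEC DN RAR 2. Its means were 818 ± 128 CPM and 653 ± 110 CPM (SD, n = 3 each), and the log2 fold change of -0.33 did not pass the test (SE 0.16, 95% interval -0.68 to 0.03, edgeR adjusted p = 0.13). Without control 2 the log2 fold change was -0.49 and passed (edgeR adjusted p = 0.041). *Fcgr2b* shares 155 exonic bases with an antisense gene, *Gm38204*, which had 2 to 7 counts per library.

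*Fcer1g*, the ITAM chain that the activating receptors share (ENSMUSG00000058715, chr1:171229572-171234365, minus strand), was at 919.8, 795 and 787 CPM in the controls and at 880.0, 869 and 698 CPM in PTEC DN RAR. The libraries were interleaved, and PTEC DN RAR 3 was the lowest. The log2 fold change was -0.03 (SE 0.12, 95% interval -0.31 to 0.25, edgeR adjusted p = 0.85). Set against its partners, *Fcer1g* stood at 0.415, 0.435 and 0.415 of the summed CPM of *Fcgr1*, *Fcgr3* and *Fcgr4* in the controls. In PTEC DN RAR this quotient was 0.615, 0.555 and 0.538, above every control. The quotient was chosen after the values were seen and is given without a test.

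*Fcgrt* encodes the heavy chain of the neonatal Fc receptor FcRn, which salvages IgG and albumin from breakdown (ENSMUSG00000003420, chr7:45092990-45103851, minus strand). It was at 278, 204 and 246 CPM in the controls and at 286, 298 and 259 CPM in PTEC DN RAR. Control 1 lay above PTEC DN RAR 3, so the genotypes overlapped. The log2 fold change was 0.21 (SE 0.12, 95% interval -0.07 to 0.49, edgeR adjusted p = 0.196). FcRn is also made by tubular epithelium, endothelium and podocytes, and transcripts of these cells moved in the same samples. All 8 proximal tubule markers rose, beside 23.6% of all genes tested. Their summed level was 364 to 506 CPM in the controls and 1449 to 2122 CPM in PTEC DN RAR. All 8 endothelial markers rose as well (74.3 to 110.5 CPM and 224 to 272 CPM), as did 4 of 5 podocyte markers (51.1 to 82.2 CPM and 146 to 178 CPM) and all 4 markers of the thick ascending limb (1019.6 to 1434 CPM and 3538 to 6876 CPM). None of these markers was at 0 in all libraries, and the part of such RNA in the *Fcgrt* values cannot be told apart from genotype here.

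*Fcrls*, an Fc receptor-like scavenger family gene known as a marker of microglia (ENSMUSG00000015852, chr3:87250758-87263738, minus strand), was at 406, 293 and 469 CPM in the controls and at 230.5, 219 and 158 CPM in PTEC DN RAR. No library of either genotype crossed into the range of the other. The mean fell from 389 ± 89.0 CPM (SD, n = 3) to 203 ± 38.9 CPM (SD, n = 3), a log2 fold change of -0.94 (SE 0.19, 95% interval -1.38 to -0.50, edgeR adjusted p = 0.0058), or 1.92-fold. The change was larger than that of *Fcgr1* with all libraries but smaller without control 3 (-0.83 against -0.96) or without PTEC DN RAR 3 (-0.83 against -0.91). With all libraries 2.8% of the genes tested had a lower log2 fold change.

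*Fcer1a*, the IgE-binding chain of the high-affinity IgE receptor of mast cells and basophils (ENSMUSG00000005339, chr1:173221284-173227214, minus strand), had 1 count in control 1 and 0 counts in the other 5 libraries. A count of 0 allows up to 3 counts, which correspond to 0.0645 to 0.102 CPM of the library totals in those 5 libraries, counting error only. Of 9 mast cell and basophil markers 6 failed the filter on low counts. *Prss34* was at 0 in all libraries, *Cpa3* was at 0 in 5 of 6, and *Mcpt8*, *Mcpt4*, *Cma1* and *Tpsb2* were at or under 0.167 CPM. The 3 tested were *Hdc*, which fell, and *Kit* and *Gata2*, which rose, *Gata2* not passing without control 2, control 3, PTEC DN RAR 1 or PTEC DN RAR 3.

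**Figure D2:**
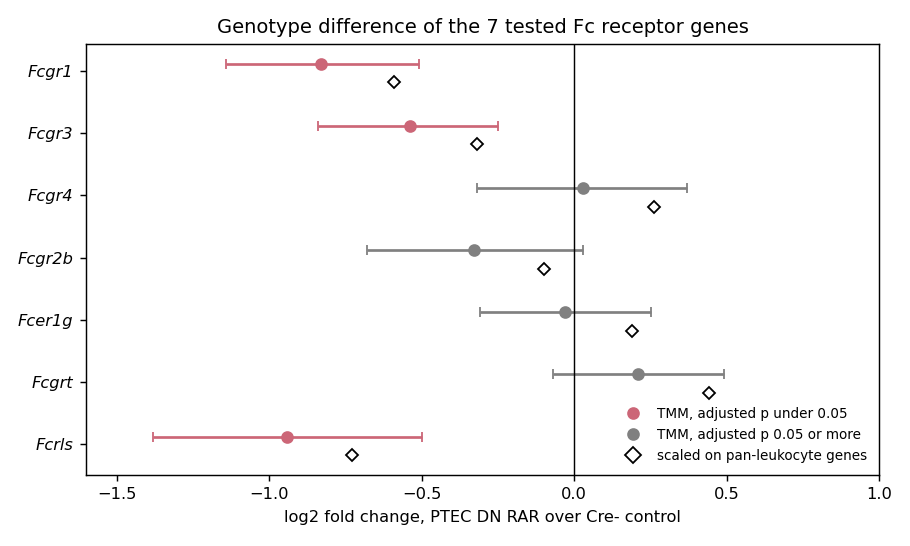
Log2 fold change of PTEC DN RAR over Cre- control for the 7 tested Fc receptor genes, with 95% intervals from edgeR after TMM (filled points) and the value after scaling on pan-leukocyte genes (diamonds). *Fcrls* (-0.94), *Fcgr1* (-0.83) and *Fcgr3* (-0.54) are below 0 with intervals that exclude it, and every diamond lies to the right of its filled point.

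The size of these changes depended on what the libraries were scaled to. When TMM was replaced by scaling on 20 pan-leukocyte genes, the median over all genes tested went from 0.04 to 0.27 in log2 fold change, and the counts of genes called lower and higher went from 2636 and 3640 to 688 and 5180. *Fcgr1* (-0.59, edgeR adjusted p = 0.016) and *Fcrls* (-0.73, edgeR adjusted p = 0.011) were still called lower. *Fcgr3* was not (-0.32, edgeR adjusted p = 0.071), and *Fcgrt* was called higher (0.44, edgeR adjusted p = 0.026). With the mean of the proximal tubule markers as a covariate, whose levels did not overlap between the genotypes, 0 of 15440 genes passed edgeR's test, and 190 were lower and 363 higher at an unadjusted p under 0.05.

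Levels of different genes were compared per kilobase of the principal transcript. In the controls *Fcer1g* was the most abundant, at 1237 ± 111 CPM per kb (SD, n = 3). *Fcgr3* followed at 732 ± 92.4 CPM per kb and *Fcgr4* at 340.1 ± 44.0 CPM per kb, and the libraries of these 3 genes did not overlap. *Fcgr2b* (231 ± 36.1 CPM per kb), *Fcgr1* (219.6 ± 37.6), *Fcrls* (171 ± 39.1) and *Fcgrt* (137 ± 21.01) came next, each overlapping its neighbour in the order. In PTEC DN RAR the first 3 places were the same, at 1210.3 ± 152, 502 ± 56.3 and 346 ± 64.4 CPM per kb. Below them the order became *Fcgr2b* (184 ± 31.1 CPM per kb), *Fcgrt* (159 ± 11.3), *Fcgr1* (124 ± 13.1) and *Fcrls* (89.2 ± 17.1), in which the ranges of *Fcgr2b* and *Fcgrt* overlapped and the others were separate. With the length of all annotated exons in place of the principal transcript, *Fcgr2b* was at 141 CPM per kb in the controls, below *Fcgr1* and *Fcrls*, and at 113 CPM per kb in PTEC DN RAR, below *Fcgrt* (134) and *Fcgr1* (124).

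Ratios within a library do not depend on its scaling and set activating against inhibitory receptor in the RNA of the same mixed CD11B+ fraction. The log2 ratio of *Fcgr3* to *Fcgr2b* was 0.23, 0.32 and 0.26 in the controls and 0.16, -0.12 and 0.13 in PTEC DN RAR. All 3 PTEC DN RAR libraries were below all controls (difference -0.21, two-sided exact permutation p = 0.1, adjusted over 5 ratios 0.167), and 0.1 is the smallest p that 3 mice against 3 can give. The log2 ratio of *Fcgr1* to *Fcgr2b* was -0.53 ± 0.22 in the controls and -1.02 ± 0.30 in PTEC DN RAR (SD, n = 3 each), with an overlap between control 3 and PTEC DN RAR 3 (difference -0.49, exact permutation p = 0.2, adjusted 0.25). That of *Fcgr4* to *Fcgr2b* was -0.93 ± 0.35 and -0.59 ± 0.08, also overlapping (difference 0.34, exact permutation p = 0.3).

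Ratios among the activating receptors were added after the values were seen, and neither passed. The log2 ratio of *Fcgr1* to *Fcgr4* was 0.57, 0.19 and 0.47 in the controls and -0.55, -0.61 and -0.13 in PTEC DN RAR. All 3 PTEC DN RAR values lay under the controls. Per kilobase of transcript, *Fcgr1* was below *Fcgr4* in every library of both genotypes, at no more than 263 CPM per kb against at least 289 CPM per kb in the controls, so the sign of this ratio does not give the order of the receptors. The difference was -0.84 (exact permutation p = 0.1, adjusted 0.167). For *Fcgr3* to *Fcgr4* the log2 ratio was 1.24, 0.88 and 1.51 in the controls and 0.85, 0.41 and 0.69 in PTEC DN RAR (difference -0.56, exact permutation p = 0.1, adjusted 0.167).

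**Figure D3:**
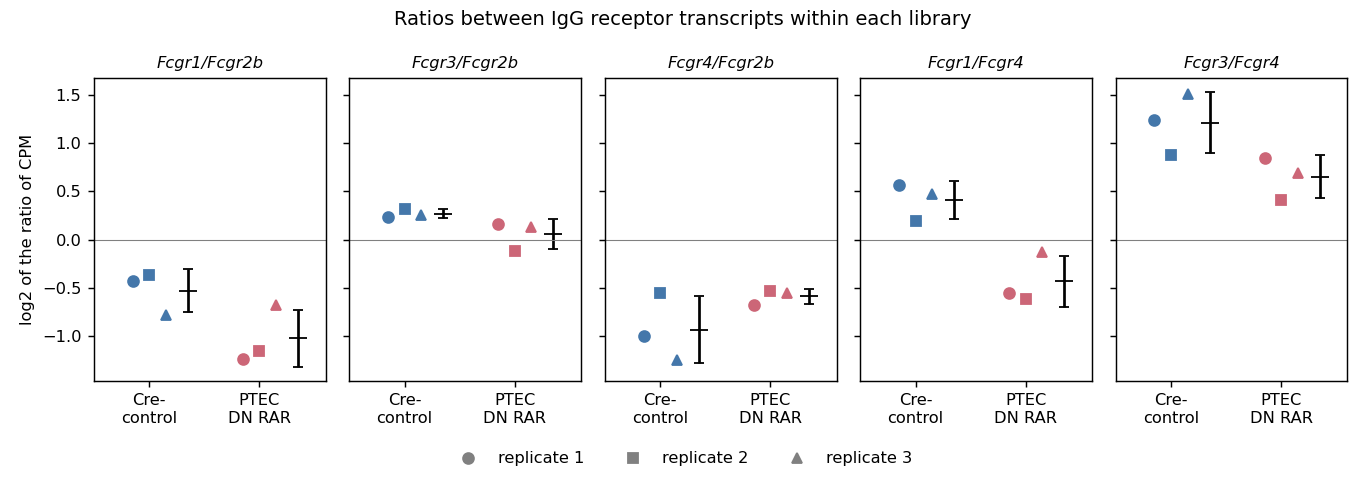
Log2 ratio of CPM between pairs of IgG receptor genes within each library, 1 point per mouse, with Cre- controls on the left and PTEC DN RAR on the right of each panel. The 3 PTEC DN RAR libraries are below all controls for *Fcgr3*/*Fcgr2b*, *Fcgr1*/*Fcgr4* and *Fcgr3*/*Fcgr4* and overlap them for the other 2 pairs.

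Set against 2 genes of the sorted cells, the same receptors moved differently. As a share of *Csf1r* CPM, *Fcgr1* was at 16.6% on average in the controls and 9.57% in PTEC DN RAR, *Fcgr3* at 28.9% and 20.1%, and *Fcrls* at 11.4% and 5.99%, each without overlap. As a share of *Itgam* CPM the same genes overlapped, with *Fcgr1* at 30.4% and 27.1%, *Fcgr3* at 52.3% and 56.0%, and *Fcrls* at 20.6% and 16.6%. *Itgam* itself fell (log2 fold change -0.64, SE 0.14, edgeR adjusted p = 0.0082), whereas *Csf1r* had a log2 fold change of -0.02 (edgeR adjusted p = 0.91). *Fcgr4* was at 12.5% and 12.9% of *Csf1r*, overlapping, and at 22.7% and 36.0% of *Itgam*, where every PTEC DN RAR library was above every control.

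Markers of the cell types in the CD11B+ fraction moved in the same samples as *Fcgr1*, *Fcgr3* and *Fcrls*. The counts below stand beside 17.1% of all genes tested called lower and 23.6% called higher. Of 8 infiltrating monocyte markers 7 fell and *Ly6c2* did not pass (edgeR adjusted p = 0.082), with a summed level of 3812 to 4113 CPM in the controls and 1611 to 1673 CPM in PTEC DN RAR. Of these, *F13a1* fell from 511 to 722 CPM in the controls to 104 to 136 CPM in PTEC DN RAR, and *Ccr2*, the chemokine receptor of recruited monocytes, from 1249 to 1334 CPM to 764 to 791 CPM. Of 10 neutrophil markers 5 fell, with a summed level of 471 to 849 CPM and 299 to 426 CPM. The call of *Retnlg* among them was lost in 5 of 6 fits with 1 library left out, and 4 neutrophil markers were lower with limma-voom and after scaling on pan-leukocyte genes. Of 8 resident macrophage markers 2 rose, *Cd74* and *Cd81*, and 0 fell, and of 7 general macrophage markers 4 fell and 0 rose, of which *Mertk* lost its call in 4 of 6 fits with 1 library left out. After scaling on pan-leukocyte genes these counts were 6 higher of the resident list and 1 lower (*Itgam*) and 1 higher of the general list. Over all 15440 genes tested, that scaling called 688 lower and 5180 higher. Of 5 platelet markers 3 were tested and 2 fell, with a summed level of 278 to 411 CPM in the controls and 34.8 to 47.0 CPM in PTEC DN RAR. These were the platelet chemokine genes *Pf4*, at 383, 258 and 357 CPM against 39.9, 32.3 and 44.0 CPM (log2 fold change -3.10, edgeR adjusted p = 0.0001), and *Ppbp* (-4.35, edgeR adjusted p = 0.0002). Most of the summed level was *Pf4*. The third marker tested, *Itga2b*, had a log2 fold change of 0.02 (edgeR adjusted p = 0.97), and *Gp1bb* and *Gp9* were at or under 0.6405 CPM. Of 5 dendritic cell markers 2 rose and 0 fell, with overlapping summed levels of 60.6 to 95.1 CPM and 86.2 to 117 CPM. They were *Xcr1* (2.46, edgeR adjusted p = 0.0042) and *Clec9a* (1.32, edgeR adjusted p = 0.0068), which mark cross-presenting dendritic cells, and *Cd74* is also a gene of dendritic cells and B cells. *Pf4*, *Ppbp*, *Xcr1* and *Clec9a* kept their calls in all 6 fits with 1 library left out. Of 6 NK cell markers 3 were tested and 0 passed, but 1 of 3 was lower without PTEC DN RAR 1. Of 5 T cell markers 3 were tested and 1, *Cd5*, rose, a call lost in 5 of 6 fits with 1 library left out. The number of T cell markers higher was 3 of 4 without PTEC DN RAR 3. None of these lists had a marker at 0 in all libraries. The part of these cell types in the receptor values was not tested.

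Across the 6 libraries some receptor genes varied together. Pearson's r of log2 CPM was 0.98 between *Fcgr3* and *Fcrls*, 0.89 between *Fcgr2b* and *Fcgr3*, 0.88 between *Fcgr2b* and *Fcrls*, 0.84 between *Fcgr1* and *Fcgr3* and 0.78 between *Fcgr1* and *Fcrls*. With *Fcgr4*, r was 0.12 for *Fcgr1* and 0.02 for *Fcgr3*. These describe 6 points that share scaling and genotype. Among 8985 other genes with a mean of at least 10 CPM, those most like *Fcgr1* were *Ifitm3* (r = 0.993), an interferon-induced membrane protein gene, and *Max* (r = 0.992). Those most like *Fcgr3* were *Ugt1a7c* (r = 0.997) and *Ppia* (r = 0.994), the latter a gene with many processed copies in the genome that is counted here only by reads aligned to 1 place, and those most like *Fcrls* were *Gnpda1* (r = 0.996) and *Dpp9* (r = 0.995). *Fcer1g* was closest to *Csf1r* (r = 0.993), and *Fcgr2b* to *Flcn* (r = 0.991) and *Irak2* (r = 0.988). For *Fcgr4* the closest genes were *Elac1* (r = 0.968) and *Meaf6* (r = 0.941), and for *Fcgrt* the closest was *Tmem115* (r = 0.979).

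The ligands of these receptors are antibodies, and antibody transcripts were higher in PTEC DN RAR. All 10 tested of 13 constant-region and joining-chain genes rose, beside 23.6% of all genes tested. Their median log2 fold change was 2.07. The summed level of the list was 478 to 615 CPM in the controls and 670.0 to 1224 CPM in PTEC DN RAR. *Igkc*, the kappa light chain, was at 46.1, 50.8 and 34.5 CPM in the controls and at 205, 218 and 68.2 CPM in PTEC DN RAR (log2 fold change 1.90, edgeR adjusted p = 0.0052). *Ighg2c*, the IgG subclass bound by the product of *Fcgr1*, was at 2.41, 5.54 and 2.03 CPM in the controls and at 47.5, 48.6 and 3.24 CPM in PTEC DN RAR. PTEC DN RAR 3 was thus below control 2, and the log2 fold change of 3.33 passed the test (edgeR adjusted p = 0.015).

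*Ighg2b* rose from 0.769, 1.04 and 1.11 CPM to 14.8, 23.0 and 2.59 CPM (log2 fold change 3.79, edgeR adjusted p = 0.0039). The changes of the others ran from 0.46 for *Ighm* (edgeR adjusted p = 0.0496) through 1.18 for *Ighd*, 1.41 for *Jchain*, 1.47 for *Igha*, 2.25 for *Iglc1* and 2.41 for *Iglc2* to 4.82 for *Ighg3*. *Ighg1* was untested, with 4.30, 1.44 and 0.0212 CPM in PTEC DN RAR. PTEC DN RAR 3 was the lowest PTEC DN RAR library for each of these genes. The number higher was 6 of 10 with limma-voom, 5 of 12 without control 3 and 6 of 10 without PTEC DN RAR 1, and 0 with the proximal tubule covariate. With 1 library left out at a time, *Ighm* and *Iglc2* lost their call in 5 of 6 fits, *Ighd* in 3, *Iglc1* in 2 and *Ighg2c* in 1, without control 3. These alternatives were chosen after the values were seen. The IgG constant regions resemble one another, so counts of reads aligned to 1 place are uncertain among them. Of 6 B cell markers 5 were tested and 1, *Cd79b*, rose (summed level 23.9 to 31.1 CPM and 34.2 to 50.2 CPM), and of 5 plasma cell markers 4 were tested, 0 rose and *Sdc1* fell (summed level 39.7 to 52.0 CPM and 33.1 to 39.1 CPM). The number of B cell markers higher was 0 without control 3, without PTEC DN RAR 1 or without PTEC DN RAR 2, 2 of 6 without control 2, 5 of 6 without PTEC DN RAR 3, 3 of 5 with DESeq2 and 4 of 5 after scaling on pan-leukocyte genes. *Sdc1* no longer passed after that scaling or without PTEC DN RAR 2. The number of plasma cell markers higher was 1 with DESeq2, without control 1, without PTEC DN RAR 3, with no filter on low counts and after pan-leukocyte scaling, where *Mzb1* passed (1.58, edgeR adjusted p = 0.026). Over all genes tested, 17.1% were called lower and 23.6% higher after TMM. The part of B cells and plasma cells in the antibody values was not tested.

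**Figure D4:**
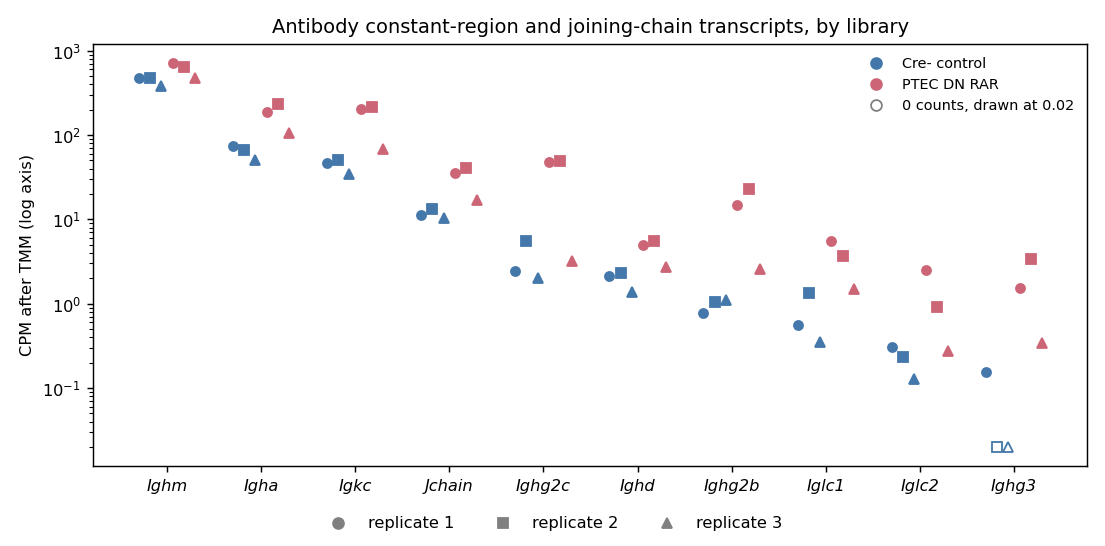
CPM after TMM (log axis) of antibody constant-region and joining-chain genes in each library, with Cre- controls in blue and PTEC DN RAR in red and libraries with 0 counts drawn as open points at 0.02. PTEC DN RAR 1 and 2 stand well above the controls for *Igkc*, *Ighg2b* and *Ighg2c*, and PTEC DN RAR 3 is nearer to them.

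Other Fc receptors and their partners changed one by one. Of 12 genes 8 were tested, 3 rose and 1 fell, with a median log2 fold change of 0.28. Over all genes tested, 23.6% were called higher and 17.1% lower. *Pigr*, the epithelial carrier of IgA and IgM, rose from 35.1, 27.5 and 30.3 CPM to 101, 85.8 and 80.0 CPM (log2 fold change 1.52, SE 0.12, edgeR adjusted p = 0.0002), alongside the tubular markers given with *Fcgrt*. *Fcamr*, a receptor for IgA and IgM, was at 0.067 to 0.307 CPM in the controls and 0.683 to 0.860 CPM in PTEC DN RAR (2.19, edgeR adjusted p = 0.0094). *Fcrl5*, a B cell receptor-like gene, passed at 2.63 (edgeR adjusted p = 0.019) although PTEC DN RAR 3, at 0.403 CPM, lay among the controls, and it lost its call in 4 of 6 fits with 1 library left out. *Trim21*, the cytosolic antibody receptor, fell from 30.2 to 31.7 CPM in the controls to 18.1 to 21.9 CPM (-0.59, SE 0.10, edgeR adjusted p = 0.003), but did not pass after scaling on pan-leukocyte genes (-0.35, edgeR adjusted p = 0.070). *B2m*, the light chain of FcRn, had a log2 fold change of -0.16 (edgeR adjusted p = 0.36), *Fcrla* 0.52 (adjusted p = 0.26), *Fcrlb* -0.56 (adjusted p = 0.15) and *Fcrl1* 0.05 (adjusted p = 0.83). The number of this list higher was 2 of 8 with limma-voom, 2 of 9 without control 1 or control 3 and 4 of 9 without PTEC DN RAR 3. The number lower was 2 of 9 without control 2.

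Inside the cell, most of the signalling genes below the receptors did not pass the test. Of 21 kinases, adaptors and effectors of ITAM signals 6 fell and 1 rose, with a median log2 fold change of -0.15. Over all genes tested, 17.1% were called lower and 23.6% higher. *Btk*, a kinase that acts after Syk, fell from 105, 117 and 113 CPM to 71.2, 66.9 and 68.2 CPM (-0.70, edgeR adjusted p = 0.0005), and the adaptor *Lcp2* by 0.54 on the log2 scale (edgeR adjusted p = 0.0015). The exchange factor *Vav3* fell by 0.33 (edgeR adjusted p = 0.034), and *Plcg1* rose by 0.64 (edgeR adjusted p = 0.0018). Of 12 genes that limit such signals 3 fell and 0 rose, beside the same shares of all genes. *Dok2*, an inhibitory adaptor, fell from 76.2, 62.5 and 80.2 CPM to 25.5, 21.8 and 27.8 CPM (-1.54, edgeR adjusted p = 0.0002), *Ubash3b* by 0.64 (edgeR adjusted p = 0.0044) and *Inpp5d*, which encodes the SHIP1 that *Fcgr2b* recruits, by 0.30 (edgeR adjusted p = 0.028). With scaling on pan-leukocyte genes the counts were 2 lower and 3 higher for the activating list and 2 lower and 0 higher for the inhibitory list, and *Vav3* and *Inpp5d* were among the genes that no longer passed. The activating list had 2 genes lower without control 3 or without PTEC DN RAR 1 and 3 without PTEC DN RAR 2 or without PTEC DN RAR 3. *Vav3* lost its call in 4 of the 6 fits with 1 library left out and *Inpp5d* in 3 (without control 2, control 3 or PTEC DN RAR 2), whereas *Btk*, *Lcp2*, *Plcg1*, *Dok2* and *Ubash3b* kept theirs in all 6.

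The chain encoded by *Fcer1g* also serves receptors that bind no antibody. Of 11 such partners 8 were tested, 3 fell and 1 rose, beside 17.1% lower and 23.6% higher of all genes tested. *Clec4d*, a receptor for mycobacterial glycolipids, fell from 124, 131 and 147 CPM to 39.9, 24.4 and 41.6 CPM (-1.92, SE 0.19, edgeR adjusted p = 0.0003). *Clec4n*, which encodes the fungal sensor dectin-2, fell from 210.2, 126 and 171 CPM to 69.8, 56.7 and 71.7 CPM (-1.36, edgeR adjusted p = 0.0009), and *Lilra6* by 0.66 (edgeR adjusted p = 0.046). *Lilra6* did not pass after scaling on pan-leukocyte genes (-0.42, edgeR adjusted p = 0.21) or in 4 of 6 fits with 1 library left out. The number of partners higher was 2 with DESeq2, without PTEC DN RAR 3, with no filter on low counts and after pan-leukocyte scaling, where *Clec4b1* passed (0.88, edgeR adjusted p = 0.014) beside 0.67 (edgeR adjusted p = 0.077) after TMM. *Lilra5* rose from 69.8, 129 and 93.2 CPM to 246, 297 and 150.4 CPM (1.25, edgeR adjusted p = 0.0077). Neither *Fcer1g* itself nor the 3 other ITAM or related adaptor chains passed, with *Tyrobp* at -0.26 (edgeR adjusted p = 0.18).

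Interferon-gamma is known to induce *Fcgr1* in macrophages. Of 9 genes of this axis 8 were tested, 2 fell and 0 rose, beside 17.1% lower and 23.6% higher of all genes tested. The 2 were *Jak1* and *Jak2*, each with a log2 fold change of -0.27 (edgeR adjusted p = 0.041 and 0.042). *Spi1*, which encodes PU.1, had a log2 fold change of 0.01 (edgeR adjusted p = 0.93). *Ifng* itself had at most 0.0478 CPM and was not tested. With scaling on pan-leukocyte genes 0 of these 8 genes were lower. The count was also 0 without control 2, without PTEC DN RAR 1, without PTEC DN RAR 2 and with at least 10 counts in every library, 1 without control 3 and 4 with DESeq2. *Jak1* and *Jak2* each lost their call in 5 of 6 fits with 1 library left out.

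**Figure D5:**
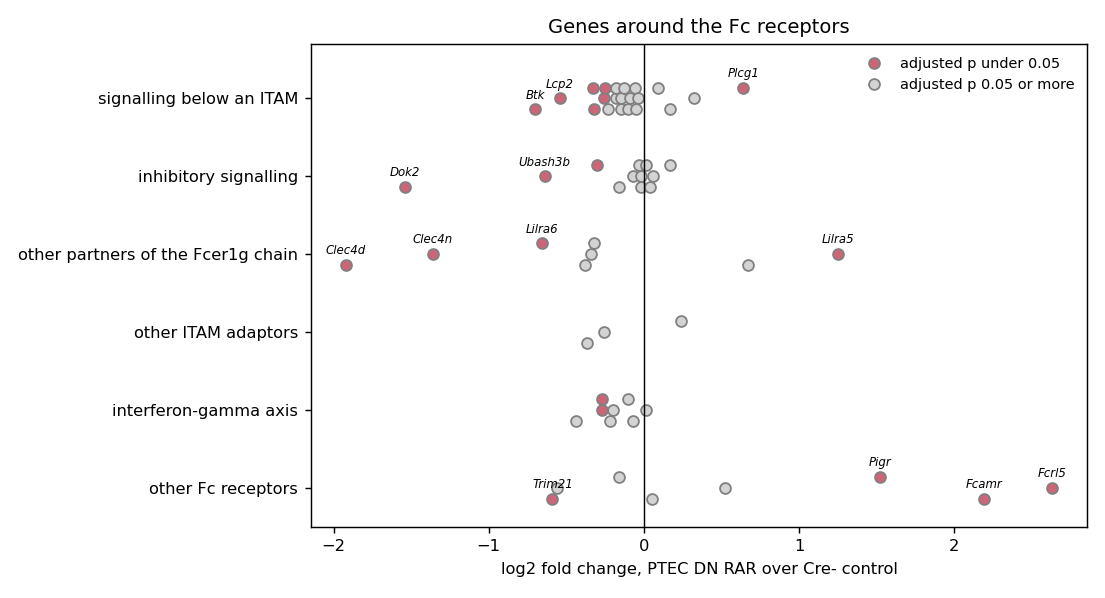
Log2 fold change of PTEC DN RAR over Cre- control for each tested gene in the groups around the Fc receptors, with genes at an edgeR adjusted p under 0.05 in red. The groups spread to both sides of 0, with *Dok2* (-1.54) and *Clec4d* (-1.92) far to the left.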

How the data were processed

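RNA-Seq was made by the authors from kidney CD11B+ cells of 6 mice, 1 library each. The deposited table holds raw read counts per Ensembl gene. The submitters' processing notes name STAR 2.5.0a, HTSeq 0.6.1, edgeR and limma with GRCm38, without their roles. Its summary lines show that reads aligned to more than 1 place were left out of gene counts, as were the lines themselves here. The line for such alignments held 42.93% to 47.75% of each library's total over genes and summary lines, which need not be a share of reads. The annotation release and strand setting are not given in the sources used here. Of 46612 gene lines, repeats of an identifier were collapsed to 46603 genes, and 27 symbols turned into dates were restored. Positions come from GENCODE M21, which held 46091 of them. The shallowest library had 29318041 counts over genes and the deepest 46517005, and all PTEC DN RAR libraries were deeper than the controls.

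Groups and replicate numbers come from the labels. After filterByExpr and TMM scaling, the genotypes were compared by edgeR 4.0.16 (glmQLFit, glmQLFTest; R 4.3.3). The p-values of 15440 genes were adjusted by Benjamini-Hochberg, with a threshold of 0.05. Ratios were tested with two-sided exact permutation tests over mice. Likeness used log2 CPM (prior count 2). Alternatives used limma 3.58.1 (voom), DESeq2 1.42.0, other scalings, filters and covariates, and each library left out in turn. Alternatives for the other gene lists were added after seeing the data. The code was tested on simulated data. Figures were drawn with matplotlib 3.10.9.

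The receptor genes and gene lists were chosen with earlier results of these data known. Named genes are the 8 receptors, up to 3 lower and 3 higher from each other list with the largest change among those passing, the tested antibody genes and other Fc receptors, and the 2 most alike genes per receptor, of which some are not reported here. *Itgam*, *Csf1r*, *Ccr2*, *Ly6c2*, *Cpa3* and other markers near 0, *Itga2b*, *Mzb1*, *Retnlg*, *Mertk*, *Clec4b1*, *Tyrobp*, *Spi1*, *Ifng* and *Ighg1* were named after their values were seen. No authors' fold changes were used.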

Additional observations from a re-analysis of the deposited data

How the results depend on the processing

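Leaving aside the ratios, whose exact test cannot pass 0.05 with 3 mice per genotype, 169 of 195 values under an alternative setting kept their direction and side of the threshold, or stayed within 1.5 times for a count. The sign changed in 10, none of which passed the test. *Fcgr4*, at 0.03, went to -0.01 with DESeq2 and with median-ratio size factors, -0.0 with no filter, -0.33 with the proximal tubule covariate and -0.13 without control 3 or PTEC DN RAR 2, with a range of -0.13 to 0.09 over the libraries left out. *Fcer1g*, at -0.03, went to 0.19 with pan-leukocyte scaling, 0.04 without control 1 and 0.03 without PTEC DN RAR 3 (range -0.12 to 0.04). *Fcgrt*, at 0.21, went to -0.42 with the covariate. Scaling on 20 pan-leukocyte genes called 688 genes lower and 5180 higher, in place of 2636 and 3640, and 1 receptor gene higher, *Fcgrt*. With the proximal tubule covariate 0 genes were lower, 0 were higher and 0 receptor genes were lower, and the cause was not tested; *Fcgr1* was then at -1.52, *Fcgr3* at -0.88 and *Fcrls* at -1.71 (edgeR adjusted p = 0.999 each). DESeq2 called 3278 genes lower and 3548 higher, and limma-voom 2589 and 3566. Leaving out 1 library at a time gave 1874 to 2824 genes lower, 2433 to 3699 higher, 3 to 4 receptor genes lower and 0 higher, the fourth being *Fcgr2b* without control 2. Log2 fold changes then ranged from -0.96 to -0.68 for *Fcgr1*, -0.68 to -0.48 for *Fcgr3* and -1.15 to -0.83 for *Fcrls*.

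The replicate numbers join different mice, so no pairing was assumed. Deviations from the group means of same-numbered libraries correlated at -0.01, 0.21 and 0.03, and only replicate 2 was closest to its own number. With 3 libraries per genotype these values cannot decide whether same-numbered libraries shared a batch. A fit with the replicate block called 2606 genes lower, 3612 higher and 3 receptor genes lower, with *Fcgr1* at -0.82 (edgeR adjusted p = 0.0097), and changed no call of a receptor gene. It called 1 plasma cell marker, 3 B cell markers and 2 *Fcer1g* partners higher, in place of 0, 1 and 1, and 4 activating signalling genes, 1 interferon-gamma axis gene, 3 general macrophage markers and 4 neutrophil markers lower, in place of 6, 2, 4 and 5, with 2 activating signalling genes higher in place of 1. Depth limits only *Fcer1a* among the receptors.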
